A study of Mus musculus with 32 samples.

Results

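The genes described here are the mouse zinc finger protein (Zfp) genes that carry a value of their own in lung RNA. They were chosen by name, Zfp followed by digits, and by a mean of at least 0.1 FPKM over 16 mice, where FPKM is the number of sequenced fragments corrected for transcript length and library size. Of 400 genes with such a name in the GENCODE annotation, 32 were listed under their own identifier, and 9 of these 32 reached the mean. These 9 stand among 26305 annotated genes and 54640 features in all. The other 23 listed Zfp genes comprised 15 with a mean above 0 but under 0.1 FPKM and 8 listed at 0 in every mouse. The levels used to choose the 9 genes are a description and were not tested.

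The lungs came from 16 male wild-type C57BL/6J mice aged 6 to 8 weeks, 4 in each of 4 groups. Control mice were labelled as healthy, with neither dust nor drug. The other 3 groups received WTCPM, particulate matter of the World Trade Center collected as dust at Ground Zero, into the nose. WTCPM mice had the dust alone, rosoxacin mice also had that quinolone antibiotic at 5 mg/kg, and dexamethasone mice also had that synthetic glucocorticoid at 0.1 mg/kg, both by intraperitoneal injection. The sources used here state neither the time from exposure to tissue collection nor any vehicle given to control or WTCPM mice. Whole lung was used, so fewer cells of a type and less RNA per cell cannot be told apart.

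Zinc finger proteins of the C2H2 type hold each finger together with a zinc ion bound by a pair of cysteines and a pair of histidines. Strings of such fingers read DNA, and many mouse Zfp genes belong to a large family that joins the fingers to a KRAB domain. KRAB proteins recruit the corepressor TRIM28, and with it the histone methyltransferase SETDB1, and are best known for silencing transposable elements. The family has grown by local duplication, so that many members lie in clusters of near-identical copies.

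The sequences shown here are finger-coding stretches of 84 bases from the GENCODE transcripts, because the fingers define these genes and because their similarity limits how reads can be assigned. Each is the first finger of the longest coding sequence that best matched the consensus linker between fingers. Capitals mark the codons of the cysteine pair and the histidine pair.
Zfp967: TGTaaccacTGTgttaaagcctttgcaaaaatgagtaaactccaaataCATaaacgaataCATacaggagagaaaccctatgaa
Zfp773: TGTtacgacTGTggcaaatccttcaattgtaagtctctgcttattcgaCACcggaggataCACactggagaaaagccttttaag
Zfp786: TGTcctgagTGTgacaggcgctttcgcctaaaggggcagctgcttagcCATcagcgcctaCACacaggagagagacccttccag
Zfp618: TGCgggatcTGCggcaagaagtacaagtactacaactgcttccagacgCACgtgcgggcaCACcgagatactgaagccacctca
The stretch of Zfp967 occurred unchanged in transcripts of 3 other genes, whereas those of the other 3 genes occurred in no other gene's transcript. After the second histidine codon, the finger of Zfp967 and that of Zfp773 matched the consensus linker at 5 of 5 residues, that of Zfp786 at 4 and that of Zfp618 at 0.

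The 9 genes lie on 7 chromosomes of mm10, and all are annotated as protein coding. Zfp967 lies on chromosome 2 (176521056 to 176532479), as does Zfp663 (165351297 to 165368729). Zfp239 (117862100 to 117873291) and Zfp786 (47819266 to 47830867) lie on chromosome 6. Zfp773 lies on chromosome 7 (7127073 to 7136755), Zfp558 on chromosome 9 (18455575 to 18478268), and Zfp618 on chromosome 4 (62965573 to 63139708). Zfp853 lies on chromosome 5 (143287038 to 143293623) and Zfp811 on chromosome 17 (32795676 to 32809931). In none of the 9 did an exon overlap an exon of another annotated gene. Within 500000 bases, Zfp811 had 9 other Zfp genes, Zfp786 had 7 and Zfp773 had 4, while Zfp558 and Zfp618 had 0.

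The longest coding sequences held between 4 and 13 C2H2 motifs, with 13 in Zfp811, 11 in Zfp967 and Zfp786, and 4 in Zfp618, whose 953 residues made it the longest protein. To see how far reads could be told apart, every stretch of 50 bases in a gene's transcripts was searched for in the transcripts of all other genes. In Zfp967 all 1717 stretches (100%) occurred in another gene, and every one of them occurred in Zfp968. The share was 8.38% in Zfp773 and between 0 and 0.647% in the other 7 genes. The level of Zfp967 is therefore uncertain, because the sources used here do not state how the authors' counting split reads among copies.

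**Figure D1:**
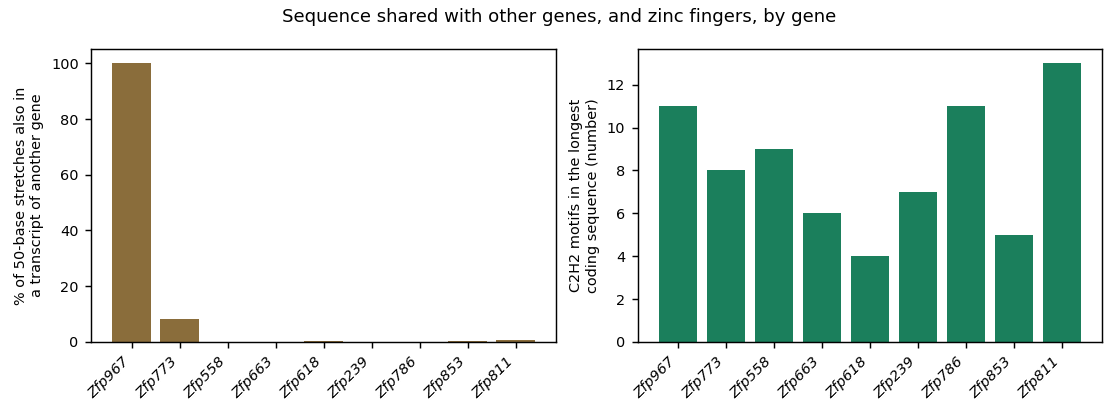
Left, the share (percent) of 50-base stretches in each gene's transcripts that also occur in a transcript of another gene. Right, the number of C2H2 motifs in its longest coding sequence. Zfp967 reached 100% and Zfp773 8.38%, and the other 7 genes lay at or below 0.647%.

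In the RefSeq promoter windows, from 250 bases before to 50 after the start (GRCm38.p6), Zfp618 held 59 CpG dinucleotides and a GC content of 88%. The windows of Zfp558 held 25 and 22 CpG, and those of Zfp786 23, Zfp853 22, Zfp663 13 and Zfp773 7. Zfp967 and Zfp811 held 5 each and the windows of Zfp239 held 4 and 6, against a median of 7 over 32851 windows. All 9 genes had a window in that table.

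Several facts of the whole series touch these values. Annotated genes held 0.114% of all FPKM, the rest being in assembled loci without a gene name, and with no read counts per library the depth is unknown. The summed FPKM of a mouse ranged from 704683 to 1329954 and was highest, within their groups, in control 1, rosoxacin 1 and dexamethasone 1. In these same 3 mice 93 of the 2749 annotated genes tested (3.38%), Zfp967 and Zfp663 among them, lay below all of the other 13 mice, and 3 lay above; the 3 mice were singled out after their values were seen. Rosoxacin mice carry library numbers 1 to 4 in the labels and all others 5 to 23, so that the drug and the number cannot be told apart. Of 71 cell type markers on 11 lists, 9 had enough signal under their own identifier to be tested, and of 9 markers of alveolar and airway epithelium 1, Spdef, was among them; Sftpc, Scgb1a1 and the other defining lung markers are not analysed here, so the labelled tissue could not be checked further.

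Among the annotated genes, which held only 0.114% of all FPKM, Zfp967 had the highest mean, 4.05 FPKM. All of its 50-base stretches also occur in other genes, so this level and its rank are uncertain. The other 8 Zfp genes lay between 0.166 and 0.488, against a median of 0.218 over the 2749 genes tested. In control mice Zfp967 read 1.43, 4.48, 4.53 and 5.08 FPKM, and in WTCPM mice 4.47, 4.56, 5.12 and 5.03. In rosoxacin mice the values were 1.77, 3.71, 4.03 and 3.37, and in dexamethasone mice 1.64, 5.19, 5.22 and 5.07. One mouse in each group but WTCPM thus lay far below its group, and no mouse lay between 1.77 and 3.37 FPKM. Both lanes of each low mouse were low. They gave 1.52 and 1.35 in control 1, 1.67 and 1.87 in rosoxacin 1, and 1.67 and 1.61 in dexamethasone 1.

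All 4 rosoxacin mice lay below all 4 WTCPM mice in Zfp967. Its log2 change was -0.62 (SE 0.38), with an adjusted p of 0.449 by limma, so that it missed the threshold. Without control 1, rosoxacin 1 and dexamethasone 1 the log2 change was -0.37 (SE 0.07, adjusted p = 0.0369 by limma) against WTCPM and -0.47 (SE 0.07, adjusted p = 0.0145) against dexamethasone. Against control it was -0.34 (SE 0.07, adjusted p = 0.0689 by limma), which did not pass. These mice were the lowest in Zfp967, so leaving them out by itself lowered its SE from 0.38 to 0.07. Over all genes tested, that fit called 11 against WTCPM, 28 against dexamethasone and 15 against control. With all mice the calls were 15, 117 and 91. The mice were left out after their Zfp967 values were seen, so the 2 passes are a description of the remaining mice.

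The annotated genes whose values followed Zfp967 most closely over the 16 mice, by Pearson correlation of log2(FPKM + 0.1) among 2748 genes, were Gm1980 (r = 0.978) and Gm47572 (r = 0.967). The low mice carry these correlations in part, and the 2 genes were chosen for them, so no p is given. Gm1980, an unprocessed pseudogene (chromosome 2, 176298827 to 176302568), read 0.351 FPKM in control 1, 0.451 in rosoxacin 1 and 0.475 in dexamethasone 1, against 0.864 or more in every other mouse. It lies in the same stretch of chromosome 2 as Zfp967 and shared 12.3% of its 50-base stretches with it. Counting all other genes, 97.5% of the stretches of Gm1980 were shared, so its level is uncertain as well. Gm47572, on chromosome 10 (82157101 to 82160461), read 0.257, 0.386 and 0.399 FPKM in the same mice and 0.616 or more in the others, and shared 0 of its stretches with any gene. Gm11008, next in likeness and beyond the 2 genes the rule names, lies on chromosome 2 (176097450 to 176100706) and shared 48% of its stretches with Zfp967. All of its stretches (100%) occurred in some other gene.

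**Figure D2:**
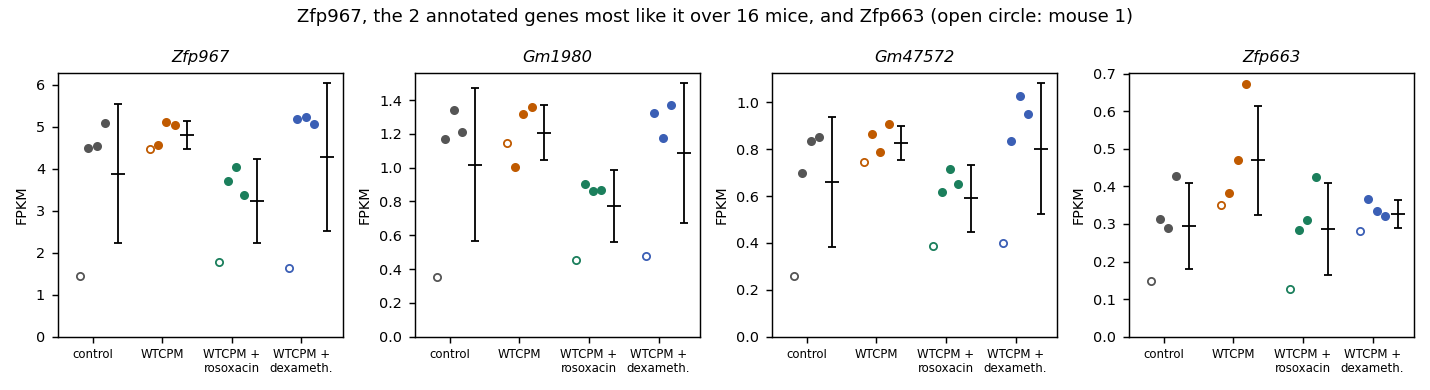
FPKM in each mouse (vertical axis) by group (horizontal axis) for Zfp967, Gm1980, Gm47572 and Zfp663; open circles are mouse 1 of a group, and bars are the mean and SD of 4 mice. In control, rosoxacin and dexamethasone groups mouse 1 lies lowest in all 4 panels.

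Zfp618, whose human counterpart is known as a partner of the hydroxymethylcytosine reader UHRF2, was the single Zfp gene that passed the test in any comparison. Rosoxacin mice read 0.422, 0.509, 0.579 and 0.383 FPKM, and dexamethasone mice 0.228, 0.258, 0.24 and 0.205. WTCPM mice read 0.253, 0.291, 0.29 and 0.285, and control mice 0.224, 0.303, 0.473 and 0.356. Every rosoxacin mouse lay above every WTCPM and every dexamethasone mouse, whereas the control range overlapped all 3 other groups.

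The mean of Zfp618 was 0.474 ± 0.0879 FPKM with rosoxacin against 0.233 ± 0.0224 with dexamethasone (SD, n = 4 each). The log2 change of rosoxacin against dexamethasone was 0.78 (SE 0.20, 95% interval 0.35 to 1.20), with an adjusted p of 0.0417 from limma over 2749 genes. Over the same genes the median change was -0.15, so that Zfp618 lay 0.92 above it. Against dust alone, the log2 change was 0.58 with rosoxacin (SE 0.20, adjusted p = 0.162) and -0.19 with dexamethasone (SE 0.20, adjusted p = 0.95), and neither passed.

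The pass of Zfp618 was marginal. Of 30 alternative settings 9 kept the adjusted p under 0.05, within a range of 0.0193 to 0.41, and the sign was positive in all 30. Because the 2 groups did not overlap, leaving mice out or changing the pseudocount could not reverse the sign. The pass was lost with either lane alone (adjusted p = 0.119 and 0.213), with the library number as a covariate (0.41), after rescaling to a common sum (0.238) or quantile normalisation (0.0699), without a filter on low values (0.0938), with the 2 groups alone (0.0813), without the variance trend (0.0511), and without any 1 of the 8 rosoxacin and dexamethasone mice (0.0594 to 0.114). It was also lost without control 2 (0.0512), WTCPM 2 (0.0534), WTCPM 3 (0.0524) or WTCPM 4 (0.0518), and without control 1, rosoxacin 1 and dexamethasone 1 together (0.0938), all by limma. The calls over all genes moved as well, from 117 in the fit as reported. They numbered 3 and 7 with the single lanes, 0 with the library number and 310 after rescaling. Quantile normalisation gave 30, no filter 15, the 2 groups alone 12 and no variance trend 68. Fits without 1 rosoxacin or dexamethasone mouse gave 14 to 162. A single lane value of Zfp618 carried an SD of 0.0767 FPKM between lanes, against 0.0698 between mice of a group.

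**Figure D3:**
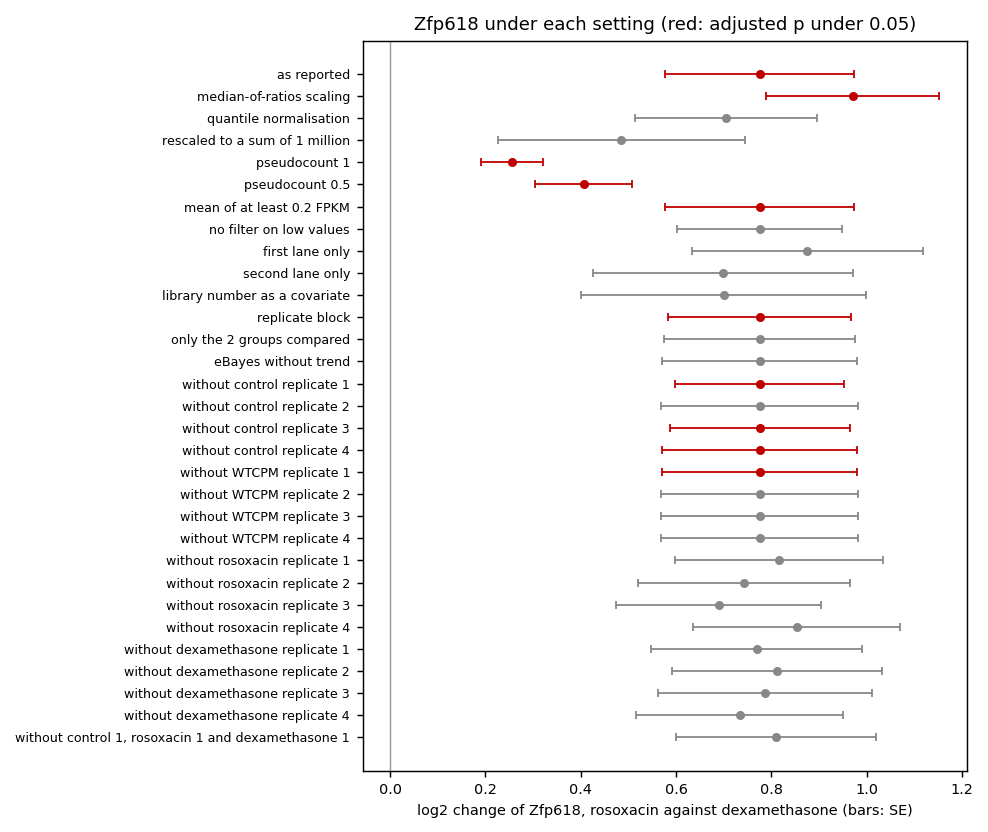
Log2 change of Zfp618 for rosoxacin against dexamethasone (horizontal axis) in the fit as reported and in 30 alternatives (vertical axis); points are estimates, bars are SE, and red marks an adjusted p under 0.05. All estimates lie above 0, between 0.26 and 0.97, and 9 alternatives are red. The 2 groups did not overlap, so leaving mice out could not move an estimate below 0.

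Of the 9 tested markers of particular cell types, 1 passed limma's test between rosoxacin and dexamethasone, against 4.26% of all genes. This was Asprv1 of neutrophils, lower with rosoxacin by a log2 change of -0.84 (adjusted p = 0.0478). The summed level of the 2 tested neutrophil markers, Cxcr2 and Asprv1 of 9 listed, was 0.837 to 1.69 FPKM in rosoxacin and 1.29 to 2.34 in dexamethasone mice, so the ranges overlapped. For endothelium and mesenchyme, Apold1 and Prox1 of 7 listed, the sum was 1.44 to 2.05 in rosoxacin and 1.18 to 1.37 in dexamethasone mice. For eosinophils, basophils and mast cells, Gata1 and Il5ra of 9 listed, it was 0.167 to 0.317 and 0.409 to 0.563. In these 2 lists 0 of 2 markers passed each (adjusted p = 0.122 for Apold1, 0.904 for Prox1, 0.0653 for Gata1 and 0.878 for Il5ra). Xcr1 of dendritic cells, Spdef of airway epithelium and Lep of adipocytes overlapped between the drug groups and did not pass (adjusted p = 0.308, 0.798 and 0.763). In other comparisons, 1 of the 2 endothelial and mesenchymal markers passed, higher with rosoxacin than in WTCPM and than in control mice. Between dexamethasone and control mice, 1 of the 2 neutrophil markers passed, higher with dexamethasone. The part of these markers in the Zfp results was not tested.

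Zfp786, a C2H2 protein with no function assigned here, was highest after dust alone. WTCPM mice read 0.343, 0.335, 0.23 and 0.373 FPKM. Rosoxacin mice read 0.139, 0.142, 0.0992 and 0.179, and dexamethasone mice 0.185, 0.149, 0.151 and 0.167. All WTCPM mice therefore lay above all mice given either drug. Control mice, at 0.18, 0.207, 0.225 and 0.289, lay above all rosoxacin mice and overlapped the WTCPM and dexamethasone groups.

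For Zfp786 the log2 change was -0.81 with rosoxacin against WTCPM (SE 0.20, 95% interval -1.23 to -0.38), just outside the threshold at an adjusted p of 0.0604 by limma. Relative to the median change of all genes, which was -0.16, it was -0.65. With dexamethasone it was -0.66 (SE 0.20, adjusted p = 0.631), where the median of all genes was 0.00. The direct comparison of the drugs gave -0.14 (95% interval -0.56 to 0.28). The rosoxacin change passed in 1 of 30 alternatives, after rescaling to a common sum (adjusted p = 0.0121).

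Zfp853 and Zfp773 had their lowest group means with rosoxacin. Zfp853 read 0.0756, 0.132, 0.131 and 0.11 FPKM in rosoxacin mice, against 0.185, 0.241, 0.217 and 0.147 in control, 0.237, 0.286, 0.128 and 0.258 in WTCPM, and 0.146, 0.221, 0.139 and 0.227 in dexamethasone mice. The rosoxacin mice lay below all control and all dexamethasone mice and overlapped WTCPM only at WTCPM 3. The log2 change was -0.61 against WTCPM (SE 0.23, adjusted p = 0.188 by limma) and -0.49 against control (SE 0.23, adjusted p = 0.254).

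Zfp773 was the most even of the 9 genes between mice, with a pooled SD of 15.7% of its mean. Rosoxacin mice read 0.319, 0.371, 0.415 and 0.391 FPKM, all below the dexamethasone mice at 0.586, 0.547, 0.488 and 0.633. The log2 change between the drugs was -0.48 (SE 0.18, adjusted p = 0.137 by limma). Control mice (0.373, 0.525, 0.555 and 0.526) and WTCPM mice (0.469, 0.397, 0.633 and 0.582) overlapped the rosoxacin range. Most like it among the annotated genes were the processed pseudogenes Gm44083 (r = 0.868) and Gm12045 (r = 0.851), over 16 mice.

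Zfp663 averaged 0.47 ± 0.145 FPKM in WTCPM mice, with single values of 0.351, 0.383, 0.471 and 0.674. Control mice read 0.147, 0.313, 0.29 and 0.427, rosoxacin mice 0.126, 0.283, 0.311 and 0.424, and dexamethasone mice 0.281, 0.368, 0.336 and 0.323. The groups overlapped, and the lowest values belonged to control 1 and rosoxacin 1. Its log2 change was -0.59 with rosoxacin against WTCPM (SE 0.28, adjusted p = 0.309 by limma).

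Zfp811, the Zfp gene closest to the lower limit of the set, was the only one besides Zfp618 with a mean above that of WTCPM in rosoxacin mice. It read 0.165, 0.287, 0.214 and 0.245 FPKM with rosoxacin, against 0.145, 0.161, 0.249 and 0.197 with dust alone, 0.0841, 0.0899, 0.132 and 0.232 with dexamethasone, and 0.0588, 0.0456, 0.206 and 0.135 in control. Each group overlapped the others. The log2 change of rosoxacin against control was 0.69 (SE 0.28, adjusted p = 0.177 by limma).

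Zfp558 and Zfp239 overlapped across all 4 groups. Zfp558 ranged from 0.2 to 0.519 FPKM with means of 0.365 ± 0.0887 for control, 0.396 ± 0.0712 for WTCPM, 0.325 ± 0.0861 for rosoxacin and 0.387 ± 0.0943 for dexamethasone (SD of 4 mice). Most like it were the noncoding 4930563J15Rik (r = 0.861) and the pseudogene Gm16531 (r = 0.843), over 16 mice. Zfp239, also known as Mok2, a finger protein that binds both DNA and RNA, ranged from 0.0732 to 0.502 FPKM, and both extremes were dexamethasone mice. Its 95% interval for dust against control was -0.78 to 0.55 on the log2 scale, so changes of either sign within it cannot be told from none. Both genes were imprecise between lanes, with a lane SD of 49.8% of the mean for Zfp558 and 44.8% for Zfp239, against 7.12% for Zfp967.

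**Figure D4:**
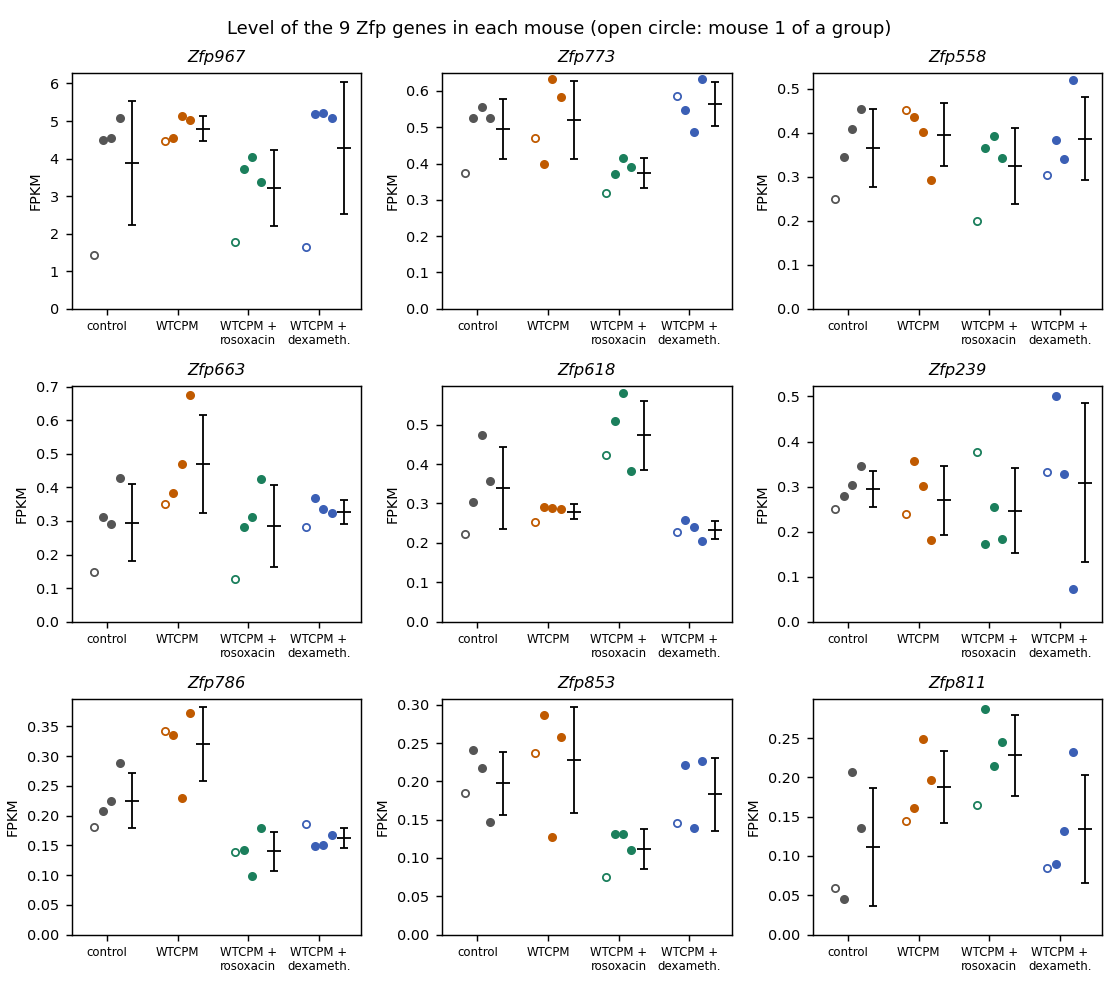
FPKM of each Zfp gene (vertical axis, from 0) in the 16 mice by group (horizontal axis); points are mice, open circles are mouse 1 of a group, and bars are the mean and SD of 4 mice. Zfp618 has its highest group mean in the rosoxacin mice (0.383 to 0.579), whose range overlaps that of control mice (0.224 to 0.473). Zfp786 lies lower in both drug groups than in WTCPM mice (0.23 to 0.373), and Zfp967 shows 3 low mice (1.43 to 1.77).

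Dust against control asks how exposure changes these genes, and 0 of 9 passed limma's test, as did 0% of all genes. At an unadjusted p under 0.05 it was 0 of 9, against 5.13% of all genes, and 0 of 9 had groups that did not overlap, against 3.02%. The median log2 change of the 9 was 0.12, with 7 of 9 above 0, against 53.4% of all genes, whose median was 0.03. The highest value was 0.55 for Zfp663 (SE 0.28) and the lowest -0.18 for Zfp618 (SE 0.20).

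Rosoxacin against dust alone asks what the antibiotic changes in exposed lungs. Again 0 of 9 passed limma's test, against 0.546% of all genes, and 4 (Zfp618, Zfp786, Zfp663 and Zfp853) had an unadjusted p under 0.05, against 15.7%. Groups did not overlap for 3 genes (Zfp618, Zfp786 and Zfp967), against 11.1% of all genes. The median change was -0.38, with 2 of 9 above 0, against 36.3% of all genes, whose median was -0.16.

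Dexamethasone against dust alone had 0 of 9 passing by limma, against 0% of all genes. Zfp786 alone had an unadjusted p under 0.05, against 5.38% of genes, and Zfp786 alone had groups that did not overlap, against 4.07%. The median was -0.20, with 2 of 9 above 0, against 50.5% of all genes, whose median was 0.00. These 3 comparisons share the WTCPM mice.

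Rosoxacin against control had 0 of 9 passing by limma, against 3.31% of all genes. Here 3 genes (Zfp786, Zfp811 and Zfp853) had an unadjusted p under 0.05, against 19.3%, and 2 (Zfp786 and Zfp853) did not overlap, against 11.2%. Dexamethasone against control had 0 of 9 passing by limma, against 0.0364% of genes, with 0 of 9 at an unadjusted p under 0.05, against 4.98%, and 0 of 9 not overlapping, against 2.4%. The median change with rosoxacin was -0.18, with 2 of 9 above 0, against 41.5% of all genes, whose median was -0.11. With dexamethasone it was 0.07, with 5 of 9 above 0, against 52.1% of all genes, whose median was 0.02.

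Rosoxacin against dexamethasone had 1 of 9 passing, Zfp618, against 4.26% of all genes. Both Zfp618 and Zfp773 had an unadjusted p under 0.05, against 20.7% of genes. Groups did not overlap for 3 genes (Zfp618, Zfp773 and Zfp853), against 13.1%. The median change was -0.20, with 2 of 9 above 0, against 38.9% of all genes, whose median was -0.15.

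**Figure D5:**
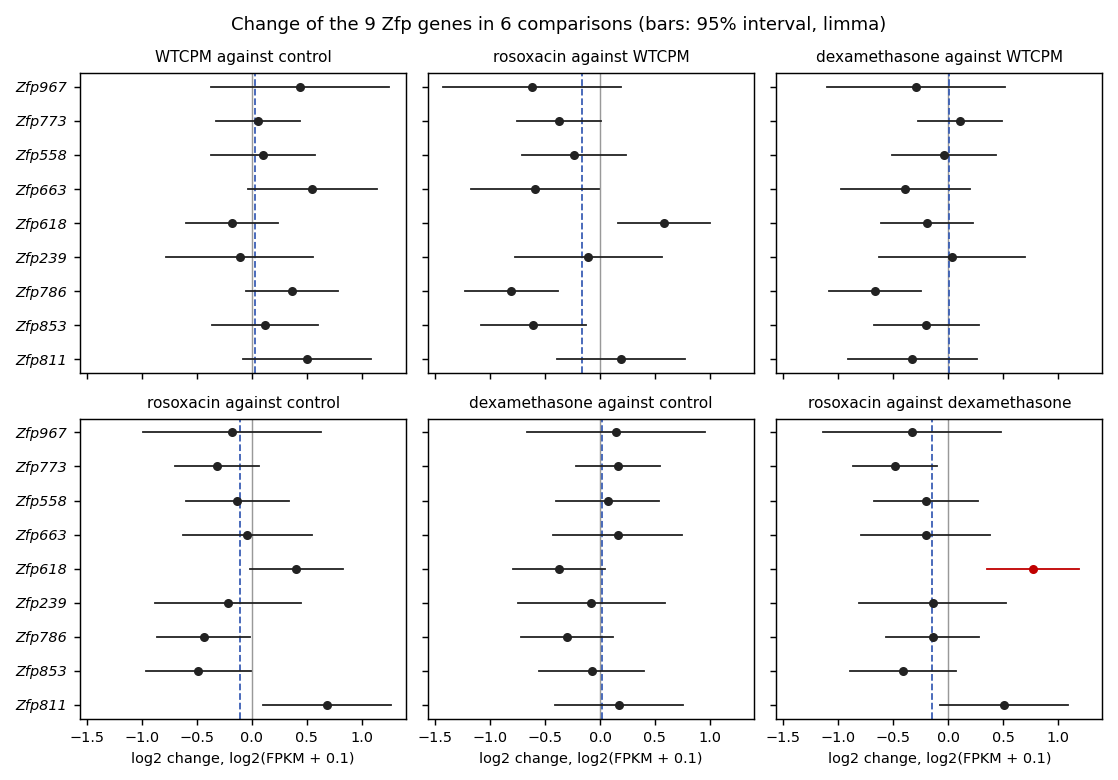
Log2 change on the log2(FPKM + 0.1) scale (horizontal axis) of the 9 Zfp genes (vertical axis) in 6 comparisons; points are limma estimates, bars are 95% intervals, the dashed line is the median of the 2749 genes tested, and red marks an adjusted p under 0.05. Zfp618 for rosoxacin against dexamethasone (0.78) is the single red point, and the Zfp786 intervals lie below 0 for both drugs against WTCPM.

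The FPKM summed over the 9 genes averaged 6.21 ± 2.11 for control, 7.47 ± 0.457 for WTCPM, 5.41 ± 1.25 for rosoxacin and 6.58 ± 1.87 for dexamethasone (SD of 4 mice). Most of that sum and of its spread was Zfp967. Without it the sums were 2.32 ± 0.478, 2.67 ± 0.148, 2.19 ± 0.249 and 2.30 ± 0.181 FPKM. All 4 WTCPM mice (2.49 to 2.84) lay above all rosoxacin mice (1.82 to 2.40) and overlapped the control (1.67 to 2.68) and dexamethasone mice (2.15 to 2.52). The summed FPKM of all annotated genes separated the same groups, at 999.8 to 1030 in WTCPM and 802.3 to 962.9 in rosoxacin mice, as did the sum of 4 genes of other C2H2 families (1.52 to 1.82 and 1.04 to 1.46). Most of this last sum was Zbtb3, with means of 1.14 in WTCPM and 0.674 in rosoxacin mice. Zbtb8b was also lower with rosoxacin (0.151 and 0.119), whereas Ikzf4 (0.294 and 0.302) and Zkscan2 (0.0864 and 0.135) were higher.

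Just inside the limit of 0.1 FPKM lay Zfp786 (0.212), Zfp853 (0.18) and Zfp811 (0.166), and just outside it Zfp536 (0.0988), Zfp572 (0.0799) and Zfp819 (0.0603). Zfp536, a repressor of neuronal differentiation, missed it narrowly and ranged from 0.0186 to 0.215 FPKM. Far below lay Zfp683, which encodes Hobit, a factor of tissue-resident lymphocytes, with a mean of 0.0374 FPKM and 9 of 16 mice at 0. Zfp42, which encodes the pluripotency marker Rex1, was listed at 0 in all 16 mice. Zfp683 and Zfp42 lie below the limit, where the rule names only the 3 nearest genes, and were picked with their values in view.

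Of 34 partners of KRAB proteins and heterochromatin factors on the list, 2 had an identifier of their own, and 0 reached 0.1 FPKM. These were Dnmt3l, a cofactor of DNA methyltransferases, at a mean of 0.0891 FPKM (0 to 0.37) and Atf7ip2, a relative of the SETDB1 partner ATF7IP, at 0.0183 (0 to 0.0876). Trim28 and Setdb1 themselves are not analysed here. Other C2H2 families, 28 genes under their own identifier, gave 4 tested genes, and 0 of 4 passed limma's test in any of the 6 comparisons. Zbtb3 averaged 0.99 FPKM, Ikzf4, a lymphocyte factor of the Ikaros family, 0.263, Zbtb8b 0.175 and Zkscan2 0.11. Their median change for rosoxacin against WTCPM was -0.11, beside -0.38 for the 9 Zfp genes; with 4 genes this difference was not tested.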

How the data were processed

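The authors deposited FPKM for 186512 transcripts in 32 libraries (2 lanes of 16 mice). The submitters' processing notes name mm10, StringTie 2.1.5, HISAT2 2.2.1, HISAT, SAMtools 1.12, FastQC and R 4.0.4, and the sources used here state no settings, annotation or strand. The files of single libraries held the same values. Transcripts were summed per identifier and the 2 lanes averaged. Symbols and coordinates came from GENCODE M21 (mm10): of 26305 Ensembl identifiers 25424 received a symbol, 24950 matched with version, and Zfp811 matched without it. limma 3.58.1 in R 4.3.3 (lmFit, contrasts, eBayes with trend) was fitted on log2(FPKM + 0.1) to the 2749 genes with an Ensembl identifier whose mean reached 0.1 FPKM, all 4 groups in 1 fit, with Benjamini-Hochberg adjustment over all 2749 and a threshold of 0.05. Fold changes on this scale understate those of low genes. The filter is a mean over all groups, and all 9 genes had values above 0 in all 16 mice. The procedure was also run on simulated data, drawn independently for each gene and mouse. Such data lack differences shared by many genes of a mouse, like those of control 1, rosoxacin 1 and dexamethasone 1. That run therefore cannot show how such differences affect the adjusted p. Members, lists and tests were chosen with earlier results of these data known. The labels name separate animals, so n is the number of mice. Of the 9 genes, those were named that passed, were among the 4 smallest p of a comparison, were among the 10 highest or were on a list of genes with a described role. Also named were the 3 genes on either side of the limit of 0.1 FPKM and the 2 genes most like each of the 3 highest. C2H2 motifs were counted in translated GENCODE coding sequences as a cysteine pair 2 residues apart and, 12 residues on, a histidine pair 3 to 5 residues apart. Figures used matplotlib 3.10.9 in Python 3.11.15.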

Additional observations from a re-analysis of the deposited data

Results flagged for a closer look

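In 40 groups of 4 mice (9 Zfp genes and their sum, in 4 groups) 5 held a mouse set apart from the other 3 by a gap beyond Dixon's 95% critical value. Chance flags about 1 in 20 groups. Zfp967 read 1.43 FPKM in control 1, with the other controls at 4.48 to 5.08, and 1.64 in dexamethasone 1, with the others at 5.07 to 5.22. The summed level of the 9 genes was 3.79 FPKM in dexamethasone 1 against 7.37 to 7.71, and Zfp967 is part of that sum. Zfp773 read 0.373 in control 1 against 0.525 to 0.555. Zfp618 read 0.253 in WTCPM 1 against 0.285 to 0.291, a small gap in a group whose range was narrow.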

How the results depend on the processing

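Over 30 alternatives the count of Zfp genes past the threshold stayed at 0 for dust, rosoxacin and dexamethasone against control and for dexamethasone against dust. For rosoxacin against dust it was 2 after rescaling to a common sum (Zfp786 and Zfp853) and 1 without control 1, rosoxacin 1 and dexamethasone 1 (Zfp967), an alternative chosen after seeing the data. For rosoxacin against dexamethasone the count of 1 became 0 with quantile normalisation, without a filter on low values, with either lane alone, with the library number as a covariate, with the 2 groups alone and without the variance trend, and ranged from 0 to 1 over fits without 1 mouse. The pass after rescaling was then Zfp773 (adjusted p = 0.0441, limma), and without the 3 mice Zfp967, each in place of Zfp618. Over all genes these fits called 310 and 28 between the drugs, against 117 in the fit as reported. With the mouse number as a replicate block the counts were the same and Zfp618 had an adjusted p of 0.0461. Mouse deviations correlated above 0.1 in 4 of 24 same-numbered pairs (-0.156 to 0.304) and 4 of 72 others (-0.195 to 0.162). Of 16 mice, 7 matched best with their own number, a count that was not set against chance.

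For the median log2 change of the 9 genes, an SE of a difference between 2 groups of 4 mice was taken from the spread between mice. The median moved by at least that SE as follows, and the cause was not tested. Dust against control: 0.30 in the second lane and 0.028 to 0.28 without 1 mouse (the highest without WTCPM 3). Rosoxacin against dust: -0.18 with median-of-ratios scaling, -0.75 after rescaling, and -0.14 and -0.22 with pseudocounts of 1 and 0.5. Dexamethasone against dust: -0.054 with a pseudocount of 1. Rosoxacin against control: -0.0072 with median-of-ratios scaling, -0.50 after rescaling, -0.41 with the library number, -0.34 without the 3 mice, and -0.27 to 0.027 without 1 mouse (-0.039 without control 4 and 0.027 without rosoxacin 1). Dexamethasone against control: -0.094 to 0.16 without 1 mouse (the lowest without control 1). Rosoxacin against dexamethasone: -0.013 with median-of-ratios scaling, -0.49 after rescaling, -0.063 with a pseudocount of 1, -0.34 in the first lane, -0.53 with the library number, and -0.26 to -0.074 without 1 mouse (the highest without rosoxacin 1). The other medians moved by less than that SE, though small ones by over 1.5 times. For dust against control (0.12) the lowest were 0.021 with quantile normalisation, 0.028 without the 3 mice and 0.034 with a pseudocount of 1, and for dexamethasone against control (0.07) 0.0071 without the 3 mice and 0.017 with median-of-ratios scaling. With a pseudocount of 0.5, rosoxacin gave -0.095 against dexamethasone and -0.097 against control, and dexamethasone -0.090 against dust. Rosoxacin against control was also -0.30 in the first lane and -0.098 in the second. For rosoxacin against dexamethasone the median of all genes itself went from -0.15 to 0.0079 with median-of-ratios scaling and to -0.41 after rescaling. The 10 single-gene changes with an unadjusted p under 0.05 kept their sign in every alternative. Each group's mean summed FPKM moved by under 1 SD with either lane, as it must without 1 of 4 mice. These alternatives were also chosen after seeing the data. Depth is unknown, so the lane SD is the only technical error that could be given.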
